A study of Callithrix jacchus with 54 samples.

Results

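Marmoset primordial germ cell-like cells (cjPGCLCs) obtained with enforced SOX17 were set against cells cultured in the same cytokines without it, at 96 h. The 4 libraries, chosen by their labels, were 2 of SOX17 + BLSE cells and 2 of BLSE cells, out of 54 libraries in 27 conditions, with 2 biological replicates each. All 4 came from CMES40, an embryonic stem cell (cjESC) line of the common marmoset (Callithrix jacchus), in a derivative that carries the reporters BLIMP1-tdTomato and NANOS3-eGFP together with rtTA, tetO-BLIMP1, SOX17-GR and a DD-TFAP2C construct, as the methods name the last. The colonies of this derivative were picked after transfection. cjESCs kept in DK20FA medium on mouse feeder cells were moved to BMP4, LIF, SCF, EGF and Rock inhibitor, a mixture called BLSE without the inhibitor. In the SOX17 + BLSE arm alone, dexamethasone was added to release the SOX17-GR fusion of human SOX17 with the hormone-binding part of the glucocorticoid receptor. At 96 h the SOX17 + BLSE cells were sorted for BLIMP1-tdTomato, while all BLSE cells were taken through the cell sorter without selection. SOX17, dexamethasone and the sort therefore cannot be told apart at this time. Unsorted cells of both arms at 48 h, and cjESCs sorted for the surface marker TRA-1-60, served as further points of comparison.

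Primordial germ cells (PGCs) are the founders of sperm and eggs. In primates SOX17, a transcription factor of the SOX family that also acts in endoderm, works with PRDM1 (BLIMP1) and TFAP2C to set the germ cell fate, keep part of the pluripotency program and hold back the programs of the body. Cells exposed to BMP4 that do not take this fate can become amnion, extraembryonic mesoderm or mesoderm of the lateral plate. Genes of such mesoderm include HAND1, GATA6, HOX genes and those of a stromal matrix.

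The sort rested on the BLIMP1 reporter, which was knocked in with a CRISPR guide, as was the NANOS3 reporter. Both guides are shown because these alleles define the cells compared, with the 10 bases nearest the PAM side in capitals.
BLIMP1 guide: gcagatctgaTGACTCGTAA
NANOS3 guide: gccagcttgagCTCGATCCCT

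Values are TPM, a level scaled by transcript length and to a fixed total per library, and differences are on the scale of log2(TPM + 1). A differentially expressed gene (DEG) differed by more than 4-fold at an adjusted p under 0.01 (limma, Benjamini-Hochberg over 11197 genes), with a mean log2 value above 1.5. The same genes were tested in every comparison. The 2 replicates correlated across genes with r = 0.9856 for SOX17 + BLSE cells and 0.9904 for BLSE cells. At 96 h, 531 genes were DEGs higher in SOX17 + BLSE cells, 4.74% of those tested, and 441 were lower, 3.94% (8.68% together). Each count of DEGs between the arms in a gene list at 96 h is to be read against these shares. The median difference of all genes was 0.24 above 0, and scaling each library by median ratios brought it to 0.002 and turned the split to 416 higher and 552 lower, with 417 and 517 after quantile normalization. Modest differences are therefore read against that shift, and ± values are standard errors of the fit with n = 2 in each group. The spread behind these errors and the adjusted p was estimated over all 54 libraries of 27 conditions, not from the compared libraries alone. In bulk RNA, fewer cells of a type and less RNA per cell cannot be told apart.

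The labelled markers separated the arms without overlap. With 2 libraries each, this also held for 5487 higher and 3092 lower genes of the 11197 tested. TBXT (brachyury), a T-box factor of the primitive streak that human PGCs also use, was at 477 and 411 TPM in SOX17 + BLSE cells and was listed at 0 in both BLSE libraries (adjusted p = 2.71e-21). CDH2, the cell adhesion molecule N-cadherin, was at 311 and 284 TPM against 0.53 and 0.77 (difference 7.50 ± 0.19, adjusted p = 3.24e-27). UTF1, a chromatin factor of pluripotent and germ cells, was at 308 and 209 against 0.6 and 1.08 TPM (7.13 ± 0.19, adjusted p = 3.32e-27). DCN, the matrix proteoglycan decorin, went the other way with 6.01 and 9.37 against 1703 and 1054 TPM (-7.30 ± 0.44, adjusted p = 1.91e-16). For each of these genes the SOX17 + BLSE and BLSE libraries lay far outside the spread of their replicates.

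The cjESCs that both arms came from placed these genes differently. TBXT stood at 435 and 404 TPM and UTF1 at 247 and 177 TPM in cjESCs, levels from which the SOX17 + BLSE cells did not differ in the test (differences 0.08 and 0.28, adjusted p = 0.871 and 0.209). CDH2 was at only 6.12 and 4.48 TPM in cjESCs, so its high level in SOX17 + BLSE cells was a gain of 5.58 ± 0.19. DCN was at 16.4 and 35.3 TPM in cjESCs, and was higher in BLSE cells by 5.74 ± 0.44 and lower in SOX17 + BLSE cells (difference -1.56).

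**Figure D1:**
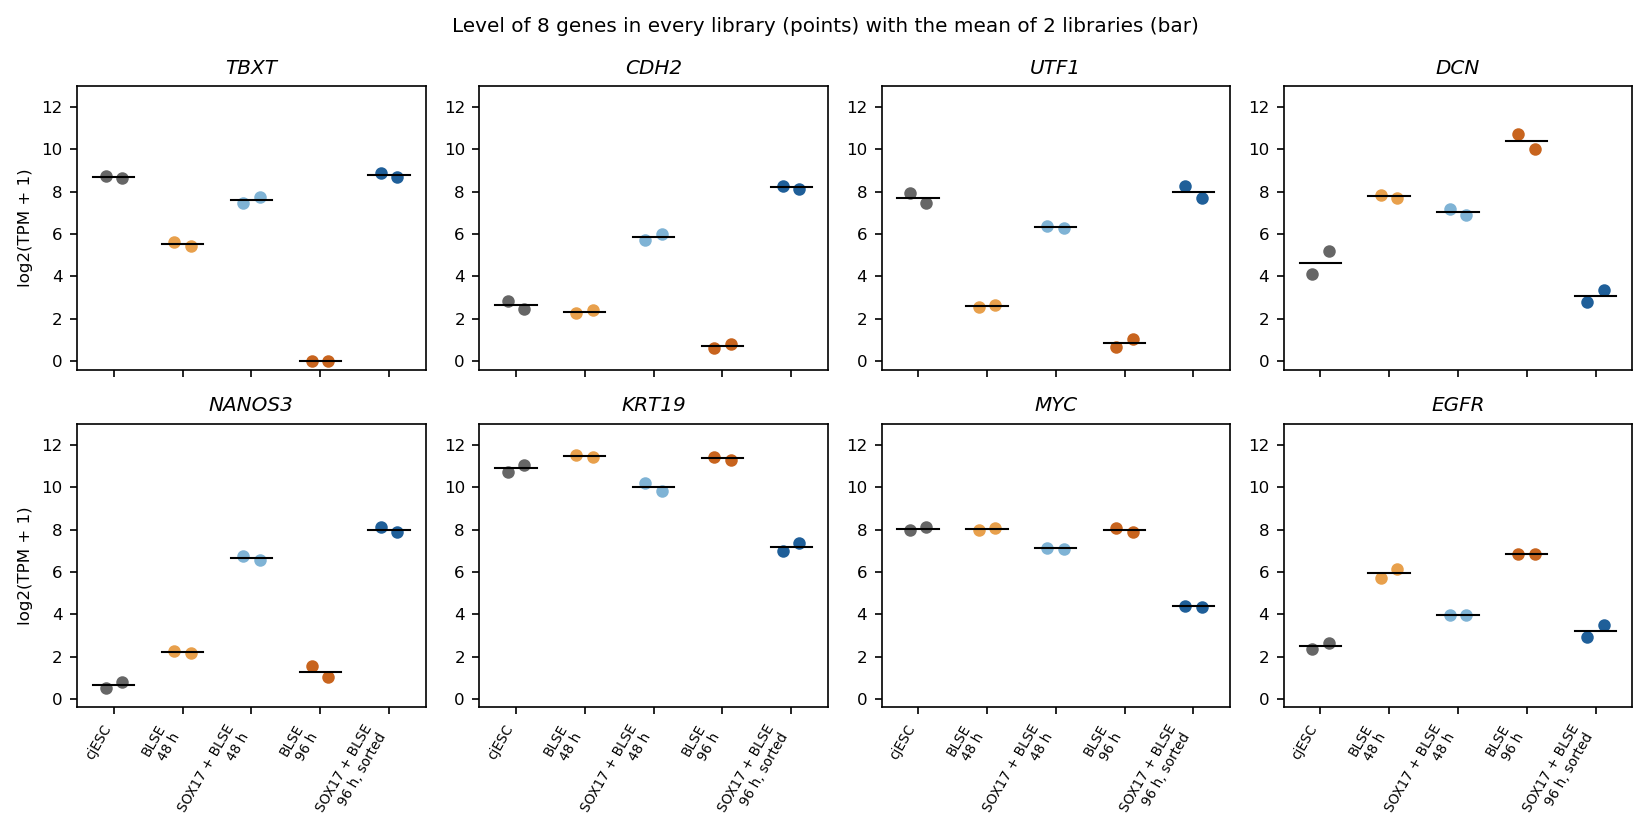
Level of 8 genes, on the scale of log2(TPM + 1), in each of 2 libraries (points) with their mean (bar) for cjESCs and both arms at 48 and 96 h. TBXT and UTF1 in sorted SOX17 + BLSE cells lie at the height of cjESCs, CDH2 and NANOS3 above it, KRT19 and MYC below it, and DCN and EGFR are highest in BLSE cells at 96 h.

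Of 16 tested genes of germ cell specification and early germ cells, 12 were DEGs higher in SOX17 + BLSE cells and 0 were lower. Of all genes, 4.74% were higher and 3.94% lower. The 12 include the transgenes SOX17, TFAP2C and PRDM1, the last also the gene of the sorted reporter. Their calls are not independent of the design. The median difference of this list, with them included, was 3.88. Under median-ratio scaling 10 were DEGs with a median of 3.58. Of the DEGs, NANOG, POU5F1 and PRDM14 are counted again below among pluripotency genes, and DPPA3 and TFCP2L1 among naive pluripotency genes. PRDM14, a factor that PGCs need to regain pluripotency genes, was at 51.5 and 42.7 TPM against 0.18 and 0 (5.46 ± 0.24, adjusted p = 2.69e-20). DND1, an RNA-binding partner of NANOS proteins, was at 403 and 386 against 2.63 and 7.8 TPM (6.13 ± 0.25, adjusted p = 4.07e-21), and PDPN, the membrane protein podoplanin that marks human PGCs, at 1242 and 1195 against 9.24 and 9.4 TPM (6.88 ± 0.13, adjusted p = 2.04e-31). SOX15, a further SOX factor of PGCs, was at 112 and 97.8 against 2.83 and 5.33 TPM (4.42 ± 0.26). Each of these was high in both sorted libraries and low in both others.

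KIT, the receptor of the added SCF, was higher in the test by 2.06 ± 0.21 (adjusted p = 9.07e-11) but reached only 3.37 and 3.62 TPM, against 0.08 and 0.07, and was no DEG because its mean was too low. LIN28A, an RNA-binding protein of PGCs and pluripotent cells, was lower (difference -0.73 ± 0.13, adjusted p = 1.36e-05), with 703 and 641 against 1221 and 1014 TPM. ALPL, alkaline phosphatase, was listed at 0 in BLSE cells and at 1.31 and 0.99 TPM in SOX17 + BLSE cells (adjusted p = 0.024). The reads of SOX17, PRDM1 and TFAP2C may include the human transgenes, and PRDM1 is also the gene of the sorted reporter. Their higher levels are therefore not read as those of the marmoset genes alone. Both arms carried the same constructs. By the methods, SOX17 alone was enforced with dexamethasone only, without the inducers of the BLIMP1 and TFAP2C constructs. The part of the transgenes in these differences was not tested.

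Pluripotency genes that were DEGs were all higher in SOX17 + BLSE cells. Of 19 tested, 7 were DEGs higher (NANOG, UTF1, POU5F1, PRDM14, GDF3, TDGF1 and FGF2) and 0 were lower, with a median of 0.51. PRDM14 and TDGF1 were nevertheless below cjESCs in SOX17 + BLSE cells (differences -1.77 and -2.65), and against cjESCs 7 of the 19 were DEGs lower in SOX17 + BLSE cells and 13 in BLSE cells, as were 3.39% and 3.3% of all genes. POU5F1 (OCT4) was at 6321 and 5730.2 against 103 and 125 TPM (5.72 ± 0.10, adjusted p = 4.37e-33), and cjESCs had 3082 and 2868. SOX2, its partner in pluripotent cells that human PGCs lack, was at 0.82 and 1.3 TPM in SOX17 + BLSE cells, 2.08 and 1.01 in BLSE cells and 191 and 200.4 in cjESCs. The fall of SOX2 from cjESCs passed the test in both arms (differences -6.59 and -6.30, adjusted p = 3.13e-20 and 1.09e-19).

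The de novo DNA methyltransferase DNMT3B was also low in both arms, at 3.49 and 3.98 TPM in SOX17 + BLSE cells and 4.51 and 4.76 in BLSE cells against 59.05 and 61.7 in cjESCs. Between the arms it did not pass the test (adjusted p = 0.424). LIN28B, which blocks the maturation of let-7 microRNAs, was lower in SOX17 + BLSE cells (difference -1.32 ± 0.20, adjusted p = 1.01e-06). Of 12 genes tied to naive pluripotency, 6 were DEGs higher and 0 lower, with a median of 2.30. They included DPPA5 at 497 and 553 against 13.8 and 17.8 TPM and KLF5 at 126 and 141 against 23.4 and 21.2 TPM. KLF17 was listed at 0 in both BLSE libraries and was at 6.67 and 5.3 TPM in SOX17 + BLSE cells.

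Genes of later germ cells were at low levels. Of 16 tested, 2 were DEGs higher and 1 was lower, against 4.74% and 3.94% of all genes, with a median of 0.54. DMRT1, a sex-determination factor of germ cells, was at 9.06 and 9.17 TPM and was listed at 0 in both BLSE libraries and both cjESC libraries (adjusted p = 2.05e-14 between the arms). STK31, a TUDOR-domain kinase of germ cells, was at 12.2 and 10.02 against 0.36 and 0.91 TPM (2.90 ± 0.29, adjusted p = 1.09e-10). GTSF1, a partner of PIWI proteins, was lower, at 0 and 2.05 against 7.63 and 7.01 TPM, and its replicates in SOX17 + BLSE cells differed (adjusted p = 0.0028, and up to 0.112 with 1 library left out). DDX4 and DAZL, the defining genes of germ cells that have reached the gonad, stayed at or near 0, with 0.38 and 0.36 TPM for DDX4 and 0 and 0.17 for DAZL in the sorted libraries.

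TBXT stood apart from most genes of the primitive streak and mesendoderm. Of 16 tested, 4 were DEGs higher (TBXT, CDX1, NODAL and MESP2) and 3 were lower (EVX1, LHX1 and CDX2), with a median of 0.66. Under median-ratio scaling and under quantile normalization the list gave 3 higher and 4 lower. MIXL1, a homeobox factor of the streak, was at 2.85 and 0.94 TPM in SOX17 + BLSE cells and 0.4 and 0 in BLSE cells, against 353 and 326 in cjESCs, and the arms did not differ in the test (adjusted p = 0.127). EOMES was at 0 and 0.27 TPM and CER1 was listed at 0 in both arms at 96 h, while cjESCs had 30.6 and 29.98 and 297 and 515 TPM. NODAL, the ligand of mesendoderm, was a DEG at 5.84 and 6.7 against 0.24 and 0.22 TPM, but cjESCs had 390.4 and 438. CDX2, a caudal homeobox factor, was lower at 4.6 and 10.2 against 62.7 and 55.2 TPM (-2.92 ± 0.42, adjusted p = 2.44e-07).

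SOX17 is also a factor of definitive endoderm, and that list was read gene by gene. Of 14 tested, 4 were DEGs higher (SOX17, PRDM1, APOA1 and HHEX) and 1 was lower (GATA6), with a median of 1.49, and median-ratio scaling left 2 higher and quantile normalization 3. Of these 4, SOX17 and PRDM1 are among the transgenes described above. FOXA2, a pioneer factor of endoderm, was at 6.36 and 7.51 TPM against 1.14 and 2.92 at 96 h, after 27.4 and 22.6 against 0 and 1.02 at 48 h. HNF4A, a hepatic nuclear receptor, was at 3.93 and 7.68 TPM in SOX17 + BLSE cells at 96 h and 26.1 and 27.9 at 48 h. Both were DEGs at 48 h (differences 4.19 and 3.47) and not at 96 h (1.45 and 1.53), when leaving out 1 library took their adjusted p to as much as 0.102 and 0.0299. AFP, TTR and FOXA1 were between 0 and 2.40 TPM in all 4 libraries.

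**Figure D2:**
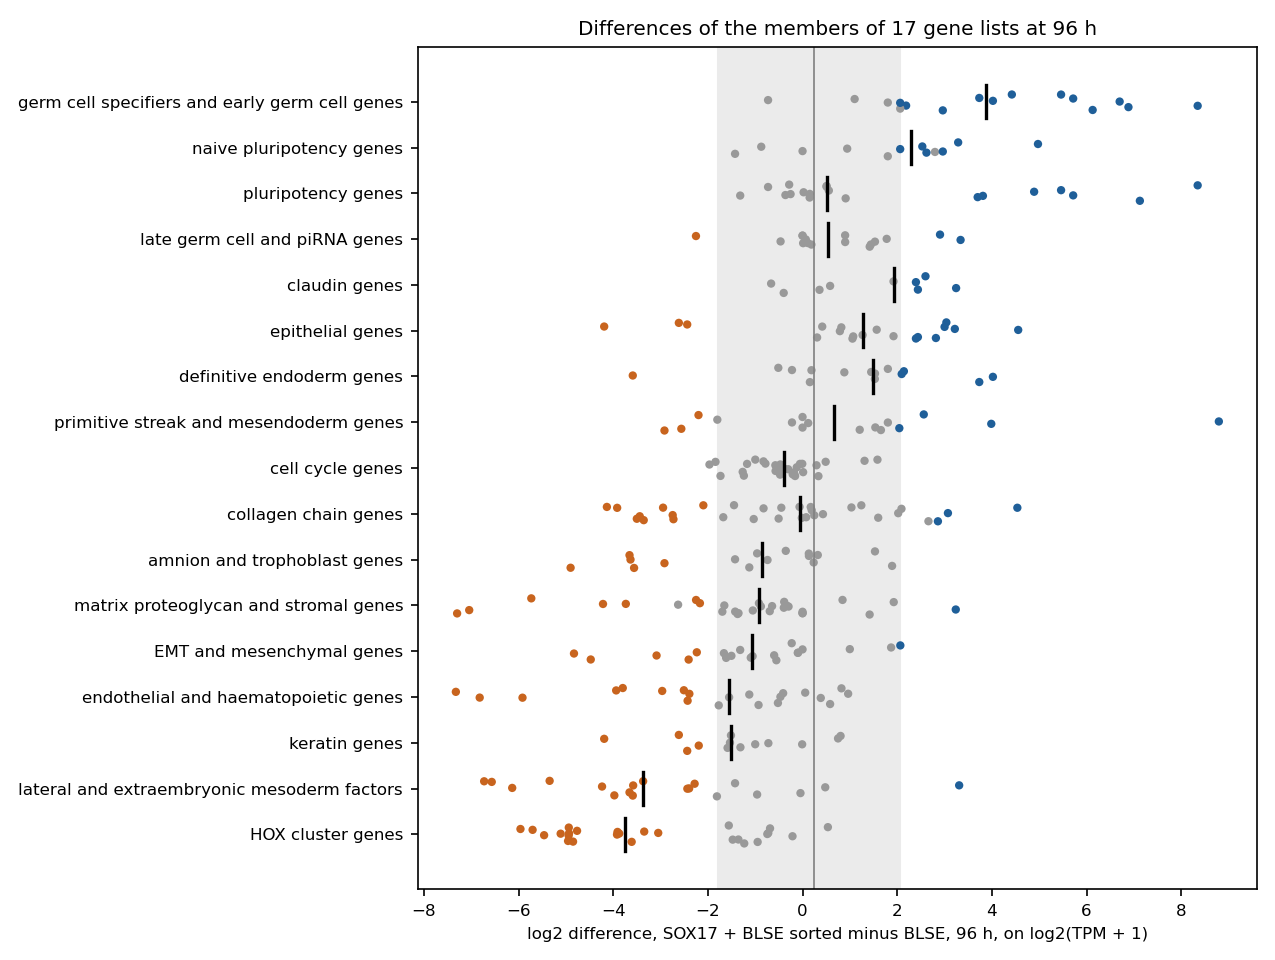
Log2 difference at 96 h (sorted SOX17 + BLSE minus BLSE) of each tested member of 17 gene lists, with the median of each list as a bar. Blue and orange points are DEGs higher and lower in SOX17 + BLSE cells, grey points are not DEGs, the line is the median of all genes (0.24) and the band runs from their 5th to their 95th percentile (-1.79 to 2.05). The germ cell list lies furthest to the right and the HOX list furthest to the left by their medians.

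Among epithelial genes, the DEGs of cell junctions were higher and the keratins lower in SOX17 + BLSE cells. Of 19 tested epithelial genes, 7 were DEGs higher and 3 were lower, and those 3 were KRT8, KRT18 and KRT19, the keratins of simple epithelia. ST14 (matriptase), a membrane protease, was at 395 and 355 against 12.7 and 17.7 TPM (4.56 ± 0.19, adjusted p = 3.41e-21), and its inhibitor SPINT1 at 92.9 and 79.5 against 8.62 and 11.3 TPM. OCLN, the tight junction protein occludin, was at 28.2 and 27.7 against 3.64 and 2.63 TPM (2.82 ± 0.21). All were higher in both sorted libraries. Of the 7 that were higher, 3 (OCLN, CLDN6 and ESRP1) had left the cjESC level by 2-fold or more in BLSE cells only, where they were lower. A further 2 had moved in SOX17 + BLSE cells only and 2 in opposite directions in both. Of 9 claudins, which seal tight junctions, 4 were DEGs higher (CLDN1, CLDN6, CLDN10 and CLDN11) and 0 lower. CLDN6 and CLDN10 are also counted among the epithelial genes. CLDN6 and CLDN11 had moved in BLSE cells only, and CLDN1 and CLDN10 in SOX17 + BLSE cells only.

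KRT19 was at 127 and 163 TPM in SOX17 + BLSE cells against 2743 and 2541 in BLSE cells (-4.19 ± 0.20, adjusted p = 2.27e-19). KRT8 was at 441 and 487 against 2745 and 2934 TPM (-2.61 ± 0.14, adjusted p = 1.56e-17). Against cjESCs, KRT19 and KRT8 had differences of -3.72 and -2.62 in SOX17 + BLSE cells, while in BLSE cells they differed by 0.47 and -0.01 without passing the test (adjusted p = 0.056 and 0.994). Over 13 keratins tested, 4 were DEGs lower and 0 higher, with KRT17 as the other one. ESRP1, a splicing factor of epithelia, was a DEG higher at 28.2 and 27.04 against 2.23 and 1.93 TPM.

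Cadherins did not follow a single pattern. Of 15 tested, 3 were DEGs higher (CDH2, CDH8 and CDH10) and 1 was lower (CDH11). CDH8, a cadherin known from the brain, was at 156 and 154 TPM and was listed at 0 in both BLSE libraries, with 1.24 and 1.44 in cjESCs. CDH1, E-cadherin, was at 43.7 and 63.8 TPM against 35.5 and 43.6 (0.42 ± 0.19, adjusted p = 0.056), so the arms were not told apart by it, and both were below cjESCs at 193 and 206. CDH11, a cadherin of mesenchyme, was at 0.29 and 0 against 15.7 and 19.02 TPM (-4.01 ± 0.36, adjusted p = 5.81e-12). N-cadherin and CDH11, both cadherins with mesenchymal expression, were thus at opposite ends of the family.

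The HOX genes, which give cells their position along the body axis, were lower as a group. Of 26 tested, 16 were DEGs lower and 0 higher, against 3.94% and 4.74% of all genes, and 21 were lower at adjusted p under 0.01 alone, which 16.1% of all genes were (45.4% in either direction). The median difference was -3.74, and it was -3.88 and -3.83 under median-ratio scaling and quantile normalization with the same 16 and 0. HOXB6 was at 0.58 and 0.18 TPM against 66.4 and 73.98 (-5.70 ± 0.29, adjusted p = 1.82e-18) and HOXA13, the last gene of cluster A, at 0.72 and 1.41 against 93.3 and 84.1 (-5.46 ± 0.29). HOXB2, HOXB4, HOXB5 and HOXC11 were listed at 0 in both sorted libraries. HOXC13, the last gene of cluster C, was weak in both arms, at 1.36 and 1.03 against 0 and 1.28 TPM (adjusted p = 0.14).

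The summed level of all 30 HOX genes in the table was 14.8 and 15.1 TPM in SOX17 + BLSE cells, 731 and 717 in BLSE cells and 42.6 and 62.2 in cjESCs. At 48 h it was 182 and 136 TPM in unsorted SOX17 + BLSE cells and 555 and 596 in BLSE cells. Against cjESCs, 6.12% of all genes were DEGs in BLSE cells (2.82% higher and 3.3% lower) and 6.73% in SOX17 + BLSE cells (3.34% higher and 3.39% lower). Of the 26 HOX genes, 15 were higher and 0 lower in BLSE cells, and 0 were higher and 1 lower in SOX17 + BLSE cells.

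**Figure D3:**
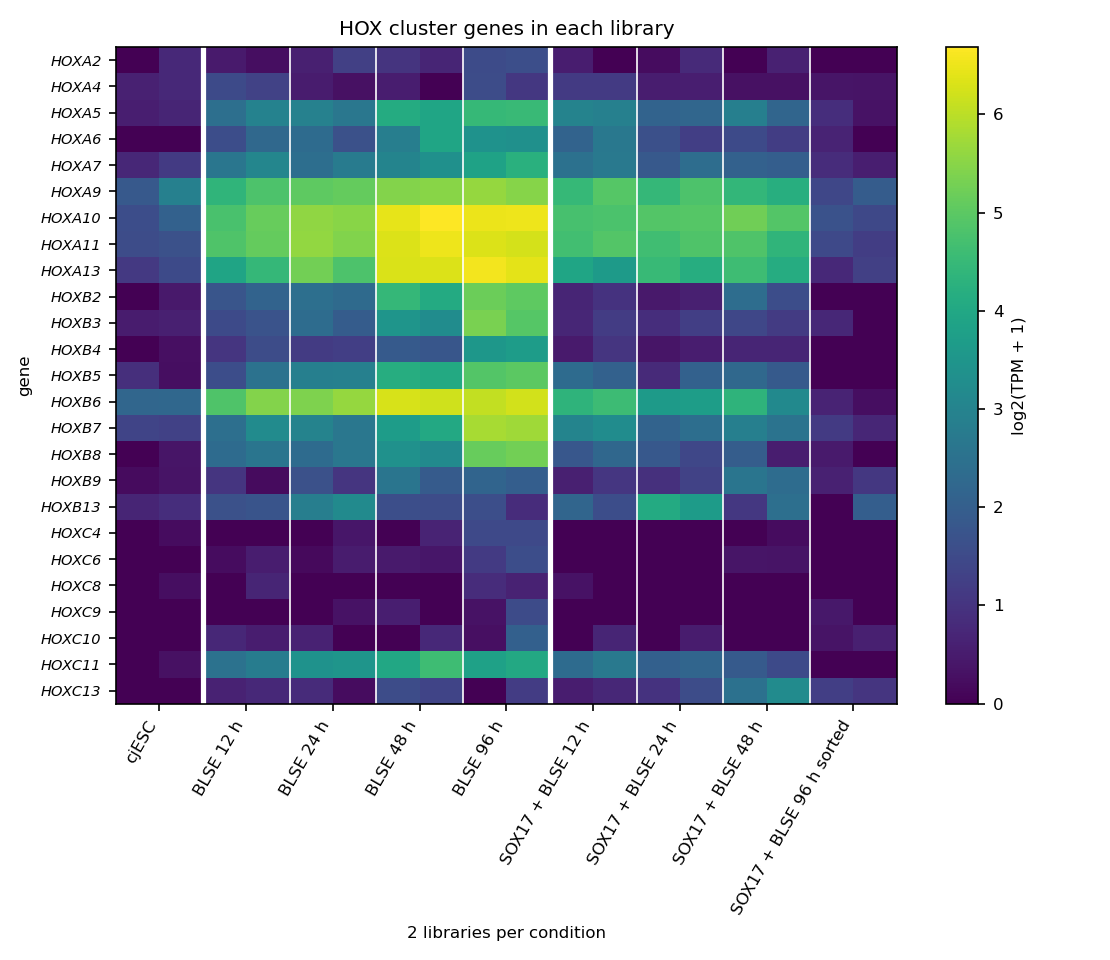
Level of 25 HOX genes, as log2(TPM + 1), in 18 libraries, 2 for each condition, with thick lines between cjESCs, the BLSE course and the SOX17 + BLSE course. In BLSE cells genes of clusters A and B are brightest at 48 and 96 h, while the sorted SOX17 + BLSE libraries at 96 h are dark throughout and unsorted SOX17 + BLSE cells from 12 to 48 h lie between.

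Factors of lateral and extraembryonic mesoderm were lower as well. Of 19 tested, 13 were DEGs lower and 1 was higher, with a median of -3.37. FOXF1, a forkhead factor of lateral plate mesoderm, was at 0.16 and 0 TPM against 115 and 88.7 (-6.57 ± 0.32, adjusted p = 4.39e-19). TBX4, a T-box factor of the hindlimb and allantois, was at 2.06 and 1.01 against 233 and 293 TPM (-6.73 ± 0.35), and PITX1, its partner in the hindlimb, at 1.49 and 1.94 against 182 and 196 TPM (-6.13 ± 0.47). HAND2 and TCF21 were listed at 0 in both sorted libraries and at 9.45 and 9.19 and 21.01 and 15.1 TPM in BLSE cells. The single member that was higher, TBX1, a factor of pharyngeal mesoderm, was at 36.8 and 34.99 against 2.12 and 3.44 TPM (3.31 ± 0.35, adjusted p = 3.91e-10).

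Matrix and mesenchymal genes differed from one another. Of 29 tested stromal genes, 7 were DEGs lower and 1 higher, with a median of -0.92, and of 20 tested EMT genes 5 were lower and 1 higher, with a median of -1.07. LUM, the proteoglycan lumican, was at 0.26 and 0.94 TPM against 98.1 and 68.5 (-5.73 ± 0.33, adjusted p = 6.72e-17), and SPARC, a matricellular protein, at 551 and 482 against 2251 and 2390.2 (-2.17 ± 0.11). VIM and SNAI2, an intermediate filament and a repressor of epithelial genes, were DEGs lower, as were TWIST1, TGFBI and CNN1. MMP2, a matrix protease, was high in both arms, at 1371 and 1052 and 1272 and 1303 TPM (adjusted p = 0.57). FBLN5, an elastic fibre protein, was the stromal gene that was higher, at 11.1 and 13.1 against 0.15 and 0.68 TPM (3.24 ± 0.36). The EMT gene that was higher was S100A4, whose sorted replicates differed (31.7 and 76.2 against 9.77 and 12.4 TPM), and which was no DEG under median-ratio scaling, with an adjusted p of up to 0.116 when 1 library was left out. The summed level of the stromal list was 2096 and 1950 TPM in SOX17 + BLSE cells and 7353 and 6886 in BLSE cells.

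Collagens went both ways. Of 31 tested chains, 9 were DEGs lower and 3 higher, with a median of -0.06. COL4A1 and COL4A2, the chains of basement membranes, were at 107 and 136 and 120.3 and 121 TPM in SOX17 + BLSE cells against 2118 and 2154 and 1186 and 1308 in BLSE cells (differences -4.13 ± 0.23 and -3.35 ± 0.21). COL6A1 was at 11.9 and 13.3 against 134 and 159 TPM. The fibrillar chain COL1A1 was weak in both arms, at 10 and 10.9 against 9.34 and 10.4 TPM (adjusted p = 0.884). COL17A1, a transmembrane collagen of hemidesmosomes, was higher at 25.1 and 24.5 against 0.23 and 0 TPM (4.54 ± 0.26, adjusted p = 6.08e-17), as were COL23A1, a further transmembrane collagen, and COL15A1.

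Endothelial and haematopoietic genes, listed as markers of other cells the cultures could hold, gave 9 DEGs lower and 0 higher of 21 tested, with a median of -1.55. ANGPT2, a ligand of the TIE2 receptor, was at 2.4 and 2.35 TPM against 365 and 396 (-6.82 ± 0.33, adjusted p = 5.41e-19), and APLNR, the apelin receptor of early mesoderm, at 2.91 and 3.05 against 233 and 246 (-5.92 ± 0.34). FLT1, a VEGF receptor, was at 15.3 and 12.8 against 219 and 197 TPM. The defining genes of the mature types were mixed. PECAM1 was at 11.1 and 9.28 against 16.8 and 11.4 TPM (adjusted p = 0.166), and VWF stayed below 2 TPM in all 4 libraries. CDH5 and RUNX1 were no DEGs, and TAL1, ERG and GATA1 did not reach the filter on low values. KDR, a further VEGF receptor, was a DEG lower, differing from cjESCs by -2.10 in SOX17 + BLSE cells and 0.33 in BLSE cells. ENG, LMO2 and EGFL7 were also DEGs lower, and in BLSE cells they were above cjESCs by 2.83, 3.52 and 3.16. The summed level of the list was 125 and 104 TPM against 1446 and 1358.

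Of 16 genes of amnion and trophoblast, 5 were DEGs lower and 0 higher, with a median of -0.85. CDX2 and HAND1 among them are also counted in the streak and mesoderm lists. Against cjESCs, 6 of the 16 were DEGs higher in SOX17 + BLSE cells (median 1.26) and 9 in BLSE cells (median 2.64). None was a DEG lower in either arm, and 3.34% and 2.82% of all genes were higher. VTCN1, an amnion marker, was at 2.89 and 3.45 TPM against 44.4 and 51.99 (-3.56 ± 0.35, adjusted p = 6.94e-11). GABRP, a receptor subunit of amnion, was listed at 0 in both sorted libraries and at 8.7 and 14.9 TPM in BLSE cells. GATA3, a factor of these tissues, did not pass the test between the arms, at 126 and 127 against 88.8 and 130.2 TPM (adjusted p = 0.492), and cjESCs had 25.6 and 49.2. TFAP2A was higher in SOX17 + BLSE cells without being a DEG, by 1.53 ± 0.28 (adjusted p = 1.66e-05). Of 11 neural genes 0 were higher and 1 was lower (NES). Of 9 cardiac and muscle genes 1 was higher (MYL3) and 2 lower (MYL7 and ACTC1). Over all genes 4.74% were higher and 3.94% lower.

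The 2 arms also differed in the receptors and ligands of the cytokines they were given. Of 17 tested, 4 were DEGs lower and 1 higher, against 3.94% and 4.74% of all genes, with a median of -0.27. EGFR, the receptor of the added EGF, was at 6.67 and 10.2 TPM against 113 and 115 (-3.64 ± 0.29, adjusted p = 2.73e-13), and its partner ERBB2 at 6.49 and 13.8 against 57.4 and 58 (-2.48 ± 0.23). ERBB3, a further family member that binds neuregulins, was higher at 85.6 and 83.9 against 13.4 and 20.01 TPM (2.30 ± 0.20, adjusted p = 5.40e-12). The receptors of this family thus moved in different directions. BMP4 transcripts were at 102 and 99.8 against 533 and 564 TPM (-2.43 ± 0.19) and BMP2 at 1.81 and 1.51 against 101 and 103 (-5.27 ± 0.38). LIFR, the receptor of LIF, was lower (difference -1.93 ± 0.26, adjusted p = 8.62e-08) and was no DEG.

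Targets of BMP signalling showed no single direction. Of 19 tested, 2 were DEGs higher and 2 lower, against 4.74% and 3.94% of all genes, with a median of 0.32. ID1, an inhibitor of differentiation factors, was at 1007 and 1006 TPM against 234 and 260.0 (2.03 ± 0.18, adjusted p = 6.87e-12), just past 4-fold, and was no DEG under median-ratio scaling. ID3 was at 573 and 566 against 609 and 619.9 TPM (adjusted p = 0.614). NOG, the secreted BMP antagonist noggin, was lower, at 1.41 and 1.28 against 26.7 and 26.9 TPM (-3.57 ± 0.36). Against cjESCs, 9 of the 19 were DEGs higher in SOX17 + BLSE cells and 5 in BLSE cells, as were 3.34% and 2.82% of all genes.

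Of 33 WNT ligands, feedback and target genes, 4 were DEGs higher and 5 lower, with a median of -0.13. LEF1, a DNA-binding partner of β-catenin, was lower, and so were LGR4, a receptor of R-spondins, at 24.4 and 28.4 against 238 and 173 TPM (-2.90 ± 0.22), and SFRP1, a secreted WNT inhibitor, at 7.03 and 5.32 against 141 and 123 (-4.21 ± 0.27). NKD1, an inhibitor that WNT induces, was higher at 26.9 and 25.9 against 0.67 and 1.17 TPM (3.85 ± 0.25, adjusted p = 8.79e-16), and so was NOTUM, which inactivates WNT ligands, at 86.2 and 74.99 against 11.2 and 17.2 (2.45 ± 0.24). AXIN2, the common feedback target, was at 4.13 and 6.19 against 1.37 and 1.93 TPM (1.20 ± 0.30, adjusted p = 8.16e-04, up to 0.0276 with 1 library left out). Under median-ratio scaling the list gave 3 higher and 7 lower.

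Retinoic acid genes gave 2 DEGs higher and 2 lower of 13 tested, with a median of -0.24, and 1 higher and 2 lower under median-ratio scaling and quantile normalization. CRABP2, a carrier of retinoic acid to its receptor, was at 29.6 and 50.9 TPM against 1641 and 2037 (-5.52 ± 0.36, adjusted p = 1.37e-15). CYP26A1, the enzyme that degrades retinoic acid and is induced by it, was at 5.73 and 14.5 against 368 and 495 TPM (-5.39 ± 0.39, adjusted p = 2.27e-14). CRABP1, the other carrier, went the opposite way with 29.9 and 37.97 against 1.75 and 3.17 TPM (3.36 ± 0.36), and RDH10, an enzyme of retinoic acid synthesis, was also higher (2.17 ± 0.24). The carriers thus differed between the arms in opposite directions.

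Of 14 genes of the LIF and STAT3 response, 3 were DEGs higher and 1 was lower. PIM2, a kinase that promotes survival, was at 477 and 427 TPM against 2 and 3.9 (6.88 ± 0.21, adjusted p = 3.70e-25). Its relative PIM1 was lower without being a DEG (difference -1.54 ± 0.17), and PIM3 was at 58.5 and 66.96 against 49.9 and 69.1 TPM (adjusted p = 0.635). MYC, the growth factor-induced transcription factor, was at 20.1 and 19.4 against 269.6 and 236 TPM (-3.61 ± 0.14, adjusted p = 1.64e-21), and cjESCs had 256 and 274. Against cjESCs MYC had a difference of -3.68 in SOX17 + BLSE cells, and BLSE cells differed from cjESCs by -0.07 (adjusted p = 0.742).

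Of 9 genes of DNA methylation and demethylation, 1 was a DEG, lower. UHRF1, which brings the maintenance methyltransferase to replicated DNA, was at 16.2 and 16.1 TPM against 146 and 164 (-3.18 ± 0.15, adjusted p = 2.13e-19). DNMT1, that methyltransferase, was at 50.9 and 41.6 against 165 and 171 TPM (-1.84 ± 0.17, adjusted p = 2.13e-11) and so just missed 4-fold, while under median-ratio scaling the list gave 2 DEGs lower. TET1, which oxidizes methylated cytosine, was at 18.4 and 16.9 against 14.7 and 13.4 TPM (adjusted p = 0.399). Of 29 cell cycle genes, 0 were DEGs, while 13 were lower and 3 higher at adjusted p under 0.01 alone, against 16.1% and 29.3% of all genes, and their median was -0.39. Under median-ratio scaling 3 of them were DEGs lower and under quantile normalization 2.

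Glycolysis genes gave 2 DEGs lower and 0 higher of 21 tested, with a median of -0.85, and 5 lower under median-ratio scaling. PFKP, the platelet form of phosphofructokinase, was at 16.7 and 18.3 TPM against 205 and 194 (-3.44 ± 0.26, adjusted p = 5.34e-14), and the other was ENO1, an enolase. PGK1, phosphoglycerate kinase, had a difference of -1.87 ± 0.10 and SLC2A1, the glucose transporter GLUT1, one of -1.87 ± 0.21, short of 4-fold. None of 56 genes of oxidative phosphorylation and none of 68 cytosolic ribosomal protein genes was a DEG, and their medians were 0.27 and 0.11, near that of all genes.

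Because dexamethasone was added to one arm alone, genes tied to it were read as well. Of 9 glucocorticoid receptor targets tested, 1 was a DEG higher and 1 lower, against 4.74% and 3.94% of all genes. TAT, tyrosine aminotransferase, was at 104 and 178 TPM against 0.2 and 0 (6.97 ± 0.38, adjusted p = 9.31e-18), and TSC22D3 (GILZ) was higher by 1.89 ± 0.30 without being a DEG. FKBP5, a chaperone that glucocorticoids strongly induce in many cells, was lower at 28.4 and 22.7 against 178 and 155 TPM (-2.66 ± 0.17, adjusted p = 1.61e-15). NR3C1, the receptor itself, did not reach the filter. Genes of dissociation and early response were read too, although cells of both arms went through the cell sorter. Of 18 tested, 1 was a DEG higher (NR4A1) and 2 were lower (ATF3 and KLF6), to be read against the same shares. ATF3 was at 2.22 and 3.73 against 159 and 150.3 TPM. The part of dexamethasone and of the sort in any difference was not tested.

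Several of the largest differences lay outside these lists or in members of them not yet named. Among genes that were higher, MSC, a bHLH repressor, was listed at 0 in both BLSE libraries and was at 90.2 and 65.5 TPM in SOX17 + BLSE cells. HHIP, which binds and restrains Hedgehog ligands, was at 77.1 and 83.1 TPM against 0.09 and 0.16 (6.17 ± 0.24), GPR155 at 84.6 and 92.1 against 0.28 and 0.13 (6.21 ± 0.27), SGSM1 at 136 and 106 against 1.57 and 0.38 (6.002 ± 0.26) and RTN4RL1, a Nogo receptor relative, at 153 and 150.2 against 1.16 and 1.67 (5.99 ± 0.26). These were near 0 in both BLSE libraries.

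Among genes that were lower, CD226, an adhesion receptor known from lymphocytes, was at 1.16 and 0.6 TPM against 363 and 242 (-7.32 ± 0.36). It is already counted among the endothelial and haematopoietic genes, as OLFML2B is among the stromal genes. OLFML2B, a secreted matrix protein, was at 0.71 and 0.26 against 206 and 180.0 (-7.04 ± 0.35), and HAPLN1, a link protein of hyaluronan matrix, at 1.29 and 5.37 against 402 and 349 (-6.62 ± 0.32). CCDC80, a matrix protein, was at 1.94 and 2.56 against 217 and 242 TPM (-6.15 ± 0.34). ALAS2, the erythroid enzyme of haem synthesis, was at 2.93 and 1.45 against 199.8 and 195 TPM. HMGA2, a chromatin protein of growing mesenchyme, was at 1.57 and 1.54 against 173 and 146 TPM (-5.97 ± 0.38), and cjESCs had 9.27 and 15.99. All of these were under 6 TPM in both sorted libraries.

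Each DEG can be placed by which arm had left the cjESC level by 2-fold or more. The arms share the cjESC libraries, so these shares are a description. Of the 531 DEGs that were higher, 240 (45.2%) had moved in SOX17 + BLSE cells only, 125 (23.5%) in BLSE cells only, 129 (24.3%) in opposite directions in both, and 37 (6.97%) in the same direction in both. NANOS3, SOX17, DMRT1 and TFAP2C were in the first class, TBXT, UTF1, NANOG and GDF3 in the second, and CDH2, CDH8, PIM2 and POU5F1 in the third. Genes that were higher thus comprised gains in the SOX17 + BLSE cells and losses in the BLSE cells.

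Of the 441 DEGs that were lower, 143 (32.4%) had moved in SOX17 + BLSE cells only, 150 (34%) in BLSE cells only, 116 (26.3%) in opposite directions and 32 (7.26%) in the same direction. KRT8, KRT18, KRT19, MYC, UHRF1 and SNAI2 were in the first class. Of the 16 HOX genes that were lower, 14 were in the second and 2 in the third, and DCN, VIM, HAND1 and COL4A1 were in the third. Most HOX genes had therefore moved in BLSE cells, and KRT8, KRT18 and KRT19 in SOX17 + BLSE cells.

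At 48 h, before any sort, the arms already differed in some of these genes. There were 226 DEGs at 48 h, 2.02% of genes, with 133 higher (1.19%) and 93 lower (0.831%). Of the 531 genes higher at 96 h, 96 were DEGs at 48 h, which is 18.1% of the 96 h list and 72.2% of the 48 h list. Of the 441 lower genes, 72 were, 16.3% and 77.4% of the lists, and 0 DEGs changed direction. The genes higher at 96 h had a median difference of 1.20 at 48 h, against 2.81 at 96 h. Those lower at 96 h had a median of -1.15 at 48 h, against -2.92. Both sets were selected by their size at 96 h, which by itself tends to make the 96 h medians the larger in size.

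Some genes were separated at 48 h and others were not. CDH8 was at 33.7 and 35.2 TPM against 0.59 and 0 at 48 h (4.81 ± 0.27, adjusted p = 4.54e-16), and CDH2 at 51.5 and 63.95 against 3.78 and 4.29 (3.54 ± 0.19). DCN was at 143 and 119 against 229 and 210.4 TPM, a difference of -0.74 ± 0.44 that did not pass the test (adjusted p = 0.237), and KRT8 differed by -0.55 ± 0.14. Of the 26 HOX genes, 8 were DEGs lower at 48 h. The difference at 96 h departed from that at 48 h in 1741 genes at adjusted p under 0.01, 15.5% of those tested, with 8.55% higher and 7% lower. For DCN the departure was -6.55 ± 0.62 (adjusted p = 6.73e-10) and for CDH2 3.97 ± 0.27. The 96 h cells of 1 arm were sorted and those at 48 h were not, so time and sort cannot be told apart in it.

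**Figure D4:**
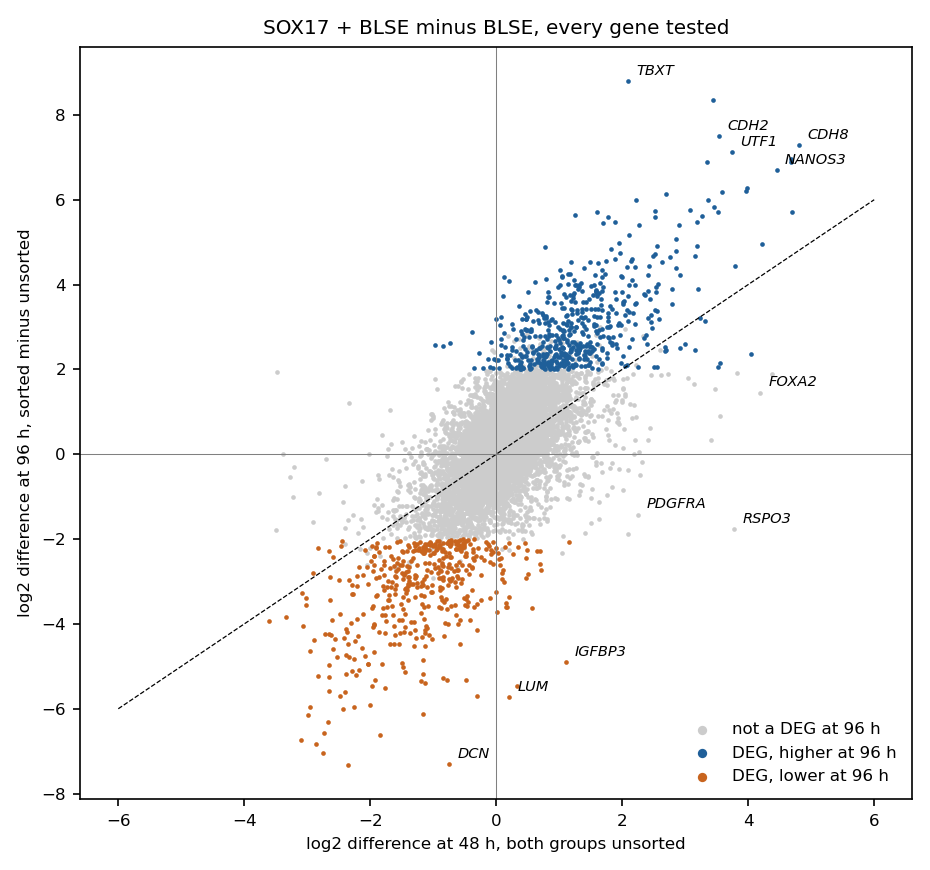
Log2 difference between SOX17 + BLSE and BLSE cells of each tested gene at 48 h (horizontal) and 96 h (vertical), with the line of equality dashed. The 531 higher (blue) and 441 lower (orange) DEGs of 96 h lie steeper than the line for the most part. Their selection by size at 96 h favours this by itself. RSPO3 and PDGFRA lie on opposite sides of 0 at the 2 times.

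RSPO3, a ligand that amplifies WNT signals, was at 249.8 and 268 TPM against 16.7 and 19.3 at 48 h (3.77 ± 0.37, adjusted p = 7.42e-10) and at 24.3 and 52.7 against 125 and 124 at 96 h (-1.77 ± 0.37, adjusted p = 1.27e-04). PDGFRA, a growth factor receptor of mesoderm and primitive endoderm, was at 112 and 129 against 23.6 and 25.2 TPM at 48 h (2.26 ± 0.40) and 32.3 and 38.3 against 104 and 88.2 at 96 h (-1.42 ± 0.40). Both changed sides, but at 96 h their adjusted p rose to as much as 0.0201 for RSPO3 and 0.0281 for PDGFRA when 1 library was left out. Of 1563 genes past adjusted p 0.01 at both times, 30 had opposite signs, and 11 of those by at least 1 log2 unit at each time.

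The markers can be set beside the other BLIMP1-tdTomato-positive cells collected at 96 h, from the same line with SOX17 but no BMP4 (SOX17 + LSE, labelled differentiated cells) and from the line labelled wild type in BLSE + IWR1 and BLSE + IWR1 + BMS. The wild type cells had been kept in PESFA medium and pre-induced, so the media differ and the values are only set side by side. CDH2 was at 191 and 167 TPM in SOX17 + LSE, 369.9 and 339.8 in BLSE + IWR1 and 396 and 389.6 in BLSE + IWR1 + BMS cells. TBXT was at 362 and 306, 504 and 647 and 399.7 and 448 TPM in the same order, and UTF1 at 248 and 228, 271 and 293 and 292 and 282. DCN was at 83.1 and 152, 26.2 and 28.6 and 11.9 and 12.8 TPM, higher in SOX17 + LSE cells than in the sorted SOX17 + BLSE cells at 6.01 and 9.37. All sorted populations had CDH2, TBXT and UTF1 far above unsorted BLSE cells at 96 h.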

How the data were processed

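RNA-seq was made from 54 libraries of CMES40 marmoset cells, in 27 conditions with 2 biological replicates. The deposited table holds TPM values, which the authors made from the reads. The submitters' processing notes name STAR and RSEM, and the methods name the marmoset assembly Callithrix_jacchus_cj1700_1.1. TPM keeps no read depth, so depth is unknown, and the count test in the methods of the study could not be applied. The 4 libraries at 96 h had 11625 to 12055 genes above 0.

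Groups came from the labels. Of 14812 genes, 11197 passed a filter on low values, a log2(TPM + 1) of at least 1.5 in 1 or more libraries. The log2 values of the deposited TPM were fitted with limma 3.58.1 in R 4.3.3, with a mean for each condition over all 54 libraries, an intensity trend and two-sided contrasts adjusted by the Benjamini-Hochberg method. DEGs were called at more than 4-fold, adjusted p under 0.01 and a mean of the groups above 1.5. The fit was tested on simulated data. An exact permutation test of 2 against 2 libraries cannot give a p below 0.3333333 and was not used.

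Named genes are the labelled markers, genes named in the study, members of the gene lists, the 15 largest differences in each direction at 96 h and the 10 in each direction between 96 h and 48 h, leaving out symbols that are locus numbers. Some genes that this rule takes are not reported here. The members and lists were chosen with earlier results of these data known. The alternatives were another pseudocount, no filter, a fit of only the libraries compared, a replicate block, 2 scalings, no intensity trend, other thresholds and leaving out each replicate.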

Additional observations from a re-analysis of the deposited data

Results flagged for a closer look

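The contrast between SOX17 + BLSE and BLSE cells was tested for a difference between 96 h and 48 h, and it differed in 1741 genes at adjusted p under 0.01 (limma, Benjamini-Hochberg), 957 with a higher and 784 with a lower contrast at 96 h. The SOX17 + BLSE cells were sorted at 96 h only, so time and sort cannot be told apart in these values.

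On the log2 scale, the contrast rose most from 48 h to 96 h in TBXT (6.70), whose BLSE libraries were listed at 0 at 96 h, and in the pluripotency gene NANOG (4.91). It was followed by RARRES2 (4.39), the pluripotency factor POU5F1 (4.12), the TGF-β family ligand GDF3 (4.12), the neurotrophin receptor NGFR (4.06) and CDH2 (3.97). C18H1orf54 (3.87), the homeobox gene IRX1 (3.82), also listed at 0 in BLSE cells at 96 h, and SGSM1 (3.79) completed the 10 largest.

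The contrast fell most in the proteoglycan DCN (-6.55), in IGFBP3 (-6.005), which binds insulin-like growth factors, and in LUM (-5.93). PCP4 (-5.78), the WNT amplifier RSPO3 (-5.54), the BMP family ligand GDF10 (-5.39) and CD226 (-4.97) followed. PITX1 (-4.97), C1QTNF3 (-4.84) and the matrix link protein HAPLN1 (-4.77) were the remaining ones.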

How the results depend on the processing

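The 972 DEGs at 96 h became 850 when the model was fitted to the 4 libraries alone and remained 972 in number with a replicate block, and deviations of same-numbered libraries of the arms correlated with r = 0.036 only. Such narrower fits gave 97 DEGs in place of 226 at 48 h, 1034 genes in place of 1741 for 96 h minus 48 h, and 417 in place of 685 for BLSE cells against cjESCs. At 2-fold there were 2642 DEGs at 96 h, 904 at 48 h, 2450 for SOX17 + BLSE cells and 1678 for BLSE cells against cjESCs, 252 over the gene lists (159 at 4-fold) and 1118 that had moved in SOX17 + BLSE cells only (383 at 4-fold). An adjusted p under 0.05 gave 2802 genes for 96 h minus 48 h. Leaving out 1 replicate gave 934 to 1036 DEGs at 96 h, 203 to 254 at 48 h, 1186 to 1522 genes for 96 h minus 48 h, 745 to 807 DEGs for SOX17 + BLSE and 652 to 720 for BLSE cells against cjESCs, 155 to 162 over the lists and 362 to 424 moved in SOX17 + BLSE cells only. Looser thresholds raise counts by their construction. In the fit to the 4 libraries alone, 18 of the named genes lost an adjusted p under 0.01 at 96 h. In the same fit 1 gained it and 146 kept their result. The smaller fits take the spread from the compared libraries alone, and why they gave fewer genes was not tested.

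Of the named genes, COL1A1, GATA3, HOXC13, MMP2, PIM3 and SOX2, which did not pass the test at 96 h, changed sign in some settings. Median-ratio scaling gave -0.20 for COL1A1, -0.066 for GATA3 and -0.21 for PIM3, and quantile normalization -0.21 for COL1A1, 0.11 for MMP2 and -0.030 for PIM3. With 1 replicate left out, GATA3 ranged from -0.038 to 0.51, HOXC13 from -0.059 to 1.13, MMP2 from -0.29 to 0.091, PIM3 from -0.14 to 0.32 and SOX2 from -0.59 to 0.026. The cause of these changes was not tested. With 2 libraries a group and no read depth, small differences at low TPM are not resolved.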

Other observations

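Among the 30 genes with opposite signs at 48 h and 96 h, further ones beside RSPO3 and PDGFRA are given here, chosen after their values were seen. GDF6, a BMP family ligand, was at 36.04 and 44.5 TPM in SOX17 + BLSE cells against 8.1 and 9.17 in BLSE cells at 48 h, and at 4.18 and 6.6 against 17.5 and 27.6 at 96 h (differences 2.09 ± 0.37 and -1.87 ± 0.37). THBD, the surface protein thrombomodulin, was at 14.7 and 21.3 against 5.77 and 5.41 TPM at 48 h and 1.62 and 3.74 against 9.94 and 9.89 at 96 h (1.51 ± 0.34 and -1.63 ± 0.34, with an adjusted p at 96 h of up to 0.0129 when 1 library was left out). ATP1B1, a subunit of the sodium pump, was at 147 and 151 against 46.04 and 48.2 TPM and then 17.2 and 36.01 against 69.6 and 78.8 (1.64 ± 0.22 and -1.53 ± 0.22).

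Of 11 imprinted genes tested, 0 were DEGs at 96 h in either direction by limma, against 8.68% of all genes. At adjusted p under 0.01 alone 3 were higher and 2 lower, against 29.3% and 16.1% of all genes. Their median difference was -0.08. Of 13 SOX family genes, 2 were DEGs higher (SOX15 and SOX17) and 1 was lower, SOX7, a factor of endothelium and endoderm, at 1.53 and 3.96 against 14.3 and 13.2 TPM (-2.06 ± 0.26). Of 11 T-box genes, 2 were higher (TBXT and TBX1) and 3 lower (TBX2, TBX4 and TBX20).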
